A study of Mus musculus with 2 samples.

Results

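The genes described here are a set of macrophage genes, chosen by name: every probe outside the array's controls whose gene name was 1 of 33 listed symbols, with Emr1 read as the older name of Adgre1. This gave 31 genes with 40 probes among the 39429 probes of the array. Of these genes 30 were tested, of 21239 genes tested in all. RNA came from ureters of mouse embryos at embryonic stage E14.5, of the NMRI strain. Each of 2 arrays compared, in separate dye channels, a mutant with a control. The mutant, Smad4cKO, was Tbx18(cre/+);Smad4(fl/fl), in which Cre made from the Tbx18 locus acts in the mesenchyme around the ureter's epithelium. The control was Tbx18(+/+);Smad4(fl/+), so mutants also carried a Cre allele at Tbx18 that controls lacked, and all embryos carried at least 1 floxed Smad4 allele. Array 1 held a female pair with the labelled control in red. Array 2 held a male pair with the labelled Smad4cKO in red, so sex and dye orientation changed together and cannot be told apart. The number of embryos or litters behind each RNA is not given. Each error therefore reflects only spread between these arrays, drawn largely from the pooled spread of all genes, and that spread may be technical.

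Macrophages are phagocytes of the blood lineage that settle in organs during embryonic life. They do not descend from the Tbx18-expressing mesenchyme in which Cre acts. The transcription factor PU.1, product of Spi1, sets their identity and binds purine-rich sites with a GAGGAA core. The receptor Csf1r keeps them alive, Fc receptors and complement C1q tag and bind targets, scavenger receptors take them up, and lysosomal enzymes digest them. In a whole organ such as the ureter, macrophages are a minority, and a change in their number and a change in RNA per cell cannot be told apart.

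Most macrophage genes were detected: for 29 of the 31 a probe was well above background in all 4 channels. Over the whole array this held for 20565 of 31839 genes. No spot was saturated, and of their 49 spots per array 1 was marked as an outlier, on 1 array only. Detection does not show that the ratio is exact: 23 of the 31 genes had 1 probe only, and several with more had probes that disagreed. Cd163, the scavenger receptor for haemoglobin bound to haptoglobin, was above background on array 2 only and was not tested; it gave log2 ratios of 0.04 and 0.0077. Cybb, the catalytic subunit of the phagocyte NADPH oxidase, was above background in all channels but the labelled control of array 1. Spi1 itself stands on the array under its older name Sfpi1 and so lay outside the choice by name. Its probe, matched by accession, gave 0.26 on array 1 and 0.17 on array 2 (mean 0.22 ± 0.13, SE).

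All ratios are log2 of the labelled Smad4cKO over the labelled control, by the dye labels. By those labels the authors' deposited value table runs the other way on each array, with control as the numerator, although the sample titles put Smad4cKO first. Should the labels have been swapped on each array, every sign below would turn.

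On array 1, 29 of the 30 macrophage genes were brighter in the labelled Smad4cKO, where 51.6% of all genes tested were. On array 2 this held for 15 of 30, where 48.5% of all genes did, a share near that background. Macrophage genes had a median of 0.32 on array 1, 0.0081 on array 2 and 0.18 for the mean of both, beside 0.0088, -0.0075 and 0.0047 over all genes. Of the 30, 15 were brighter on both arrays (19.9% of all genes), 1 was dimmer on both (19.8% of all genes) and 14 were brighter on array 1 and dimmer on array 2 (31.7% of all genes). Where all 4 channels had to be above background, which left out Cybb, 14 of 29 were brighter on both arrays (19.4% of all genes so filtered). Opposite signs on the arrays, in either order, were found for 60.3% of all genes. None passed the threshold of limma, a linear model with a moderated error fitted across all genes (0 of 30 at an adjusted p under 0.05, beside 0.00471% of all genes). At an unadjusted p under 0.05 there were 4 of 30, beside 5.1% of all genes. A shared shift of 1.5-fold on array 1 and array 2 was reached by 0 of 30 (0.49% of all genes brighter, 0.523% dimmer). On array 1 alone Lyz2, Stab1 and Fcgr3 were at least 1.5-fold brighter (4.43% of all genes in either direction), and on array 2 alone 0 were (4.13%).

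**Figure D1:**
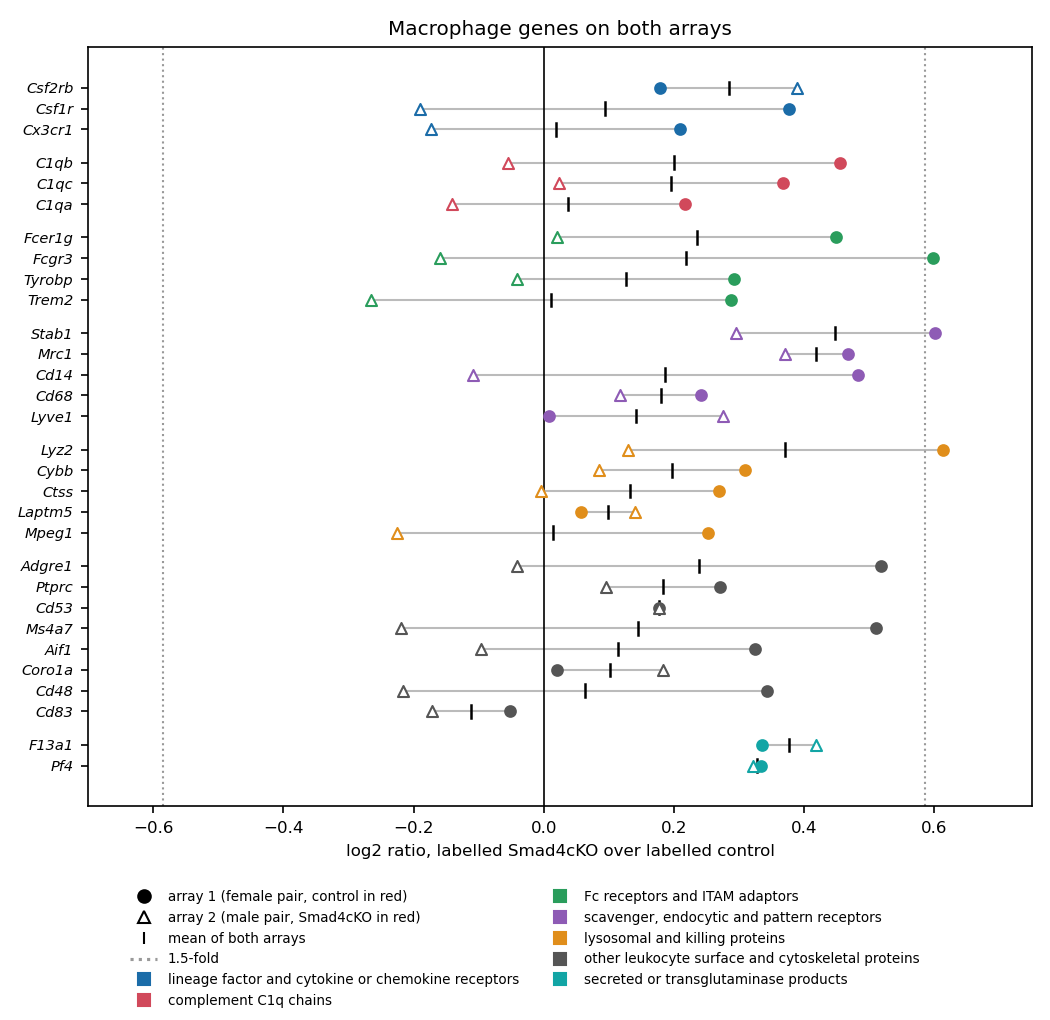
Log2 ratio of labelled Smad4cKO over labelled control for each of 30 macrophage genes, grouped by role, with a filled circle for array 1, an open triangle for array 2, a bar for their mean and dotted lines at 1.5-fold. All circles but that of Cd83 lie right of 0, while 15 triangles lie on each side; Mrc1, Stab1, F13a1 and Pf4 have both symbols well to the right.

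By the smaller of its 2 ratios, the highest genes were Mrc1, F13a1, Pf4 and Stab1, which are also the 4 with an unadjusted p under 0.05. The array read them through 60-base probes, whose first 30 bases, 5′ to 3′, were as follows; they are shown because the result of each gene rests on this single probe.
Mrc1: ctttttcagcagtcctgattcatgtcagtt
Stab1: ctcaaggtcaaatgatgagctggaatgaag
F13a1: ctggtttacttctaagtcattgataggttc
Pf4: ctggagagttaggtatcagctgcctaaatg
The probes lay in build mm9 at chr2:14253273-14253332 (+ strand), chr14:31952288-31952347 (- strand), chr13:36959214-36959273 (- strand) and chr5:91202275-91202334 (+ strand) in that order. Whether these positions are coding or untranslated was not annotated here.

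Mrc1, the mannose receptor with which tissue macrophages take up glycoproteins, had processed signals (background-subtracted and dye-normalized by the scanner software) of 1437 in the labelled Smad4cKO and 1033 in the labelled control on array 1, and 1649 and 1221 on array 2. Both mutant channels were above their control. Its log2 ratio was 0.47 on array 1 and 0.37 on array 2, with a mean of 0.42 ± 0.13 (SE, n = 2), or 1.34-fold, and a limma adjusted p of 0.633. Stab1, stabilin-1, a scavenger receptor of tissue macrophages and of sinusoidal endothelium, had signals of 1953 in the labelled Smad4cKO and 1245 in the labelled control on array 1, and 2237 and 1846 on array 2. It gave 0.60 on array 1 and 0.29 on array 2 (mean 0.45 ± 0.14, 1.36-fold, limma adjusted p = 0.666), the highest mean of the 30 genes. These arrays do not separate either gene from 0 after adjustment.

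F13a1, the A subunit of coagulation factor XIII and a transglutaminase of resident macrophages, had signals of 529 in the labelled Smad4cKO and 405 in the labelled control on array 1, and 665 and 489 on array 2. Its ratio was 0.34 on array 1 and 0.42 on array 2 (mean 0.38 ± 0.13, 1.3-fold, limma adjusted p = 0.761). A second F13a1 probe was not above background and was not tested. Pf4, a chemokine of platelets that embryonic macrophages also make, had signals of 3214 in the labelled Smad4cKO and 2502 in the labelled control on array 1, and 3351 and 2686 on array 2. Its ratios were nearly equal, 0.33 on array 1 and 0.32 on array 2 (mean 0.33 ± 0.13, 1.25-fold, limma adjusted p = 0.948). Mrc1, Stab1 and Lyve1 are also made by endothelium and Pf4 by platelets. Without these 4 genes, 11 of 26 were brighter on both arrays, and the medians were 0.30 on array 1 and -0.04 on array 2.

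Promoter sequences were available for 23 of the 31 genes as 28 windows, each from 250 bases before to 50 bases after a gene's start, from RefSeq (GRCm38.p6, another build than that of the probes). The windows of the 4 genes above are shown up to the start, since these genes had the highest smaller ratio; capitals mark GAGGAA or its reverse complement TTCCTC, in one case as part of the longer GAGGAAGT or ACTTCCTC.
Mrc1: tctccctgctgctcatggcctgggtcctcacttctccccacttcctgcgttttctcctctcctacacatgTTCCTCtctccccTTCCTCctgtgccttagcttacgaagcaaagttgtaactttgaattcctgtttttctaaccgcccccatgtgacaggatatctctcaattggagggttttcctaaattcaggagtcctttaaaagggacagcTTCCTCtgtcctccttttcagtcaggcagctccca
Stab1: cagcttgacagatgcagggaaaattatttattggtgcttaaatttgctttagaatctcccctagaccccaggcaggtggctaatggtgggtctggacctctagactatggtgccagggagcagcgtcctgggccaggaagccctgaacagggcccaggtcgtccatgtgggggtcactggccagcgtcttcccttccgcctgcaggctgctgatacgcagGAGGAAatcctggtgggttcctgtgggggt
F13a1: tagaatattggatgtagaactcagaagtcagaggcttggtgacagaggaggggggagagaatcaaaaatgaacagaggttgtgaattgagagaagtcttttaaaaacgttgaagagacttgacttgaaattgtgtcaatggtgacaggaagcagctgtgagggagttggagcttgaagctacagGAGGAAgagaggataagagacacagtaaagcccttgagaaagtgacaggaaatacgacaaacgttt
Pf4: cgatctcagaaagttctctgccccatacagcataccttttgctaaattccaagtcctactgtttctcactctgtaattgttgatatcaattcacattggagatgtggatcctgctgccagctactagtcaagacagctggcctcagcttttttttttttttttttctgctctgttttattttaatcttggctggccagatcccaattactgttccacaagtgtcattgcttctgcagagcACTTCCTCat
These are chr2:14229164-14229413 on the + strand, chr14:31168642-31168891 on the - strand, chr13:37050245-37050494 on the - strand and chr5:90772185-90772434 on the + strand; for F13a1 the more upstream of its windows is shown. On either strand GAGGAA was found in 18 of the 28 windows of macrophage genes (64.3%), beside 28.3% of all 32851 windows of that length. The Mrc1 stretch holds it 3 times and the other 3 stretches once each. GAGGAAGT was found in 5 of 28, those of C1qc, Cd53, Ctss, F13a1 (outside the stretch shown) and Pf4, beside 3.2% of all windows. A match is a description of the sequence and not a site bound by PU.1. Genes with the motif occur among those with like and unlike ratios: Trem2 and Ms4a7, with opposite signs on the arrays, hold GAGGAA too. Whether the motif goes with the ratios was not tested.

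Among the receptors for growth and position, Csf1r, on which macrophages depend for survival, had signals of 4663 in the labelled Smad4cKO and 3621 in the labelled control on array 1, and 5096 and 5643 on array 2. The labelled control of array 1 was the lowest channel, and the mutant channels did not both lie above the controls. Its ratio was 0.38 on array 1 and -0.19 on array 2 (mean 0.09 ± 0.17), and its other 2 probes gave 0.18 and -0.02, and -0.0066 and -0.04. Cx3cr1, the fractalkine receptor, gave 0.21 on array 1 and -0.17 on array 2 (mean 0.02 ± 0.15), and its second probe 0.04 and 0.11. Csf2rb, the beta chain shared by the GM-CSF receptor family, was brighter on both arrays, at 0.18 and 0.39 (mean 0.28 ± 0.14, limma adjusted p = 1), with low signals between 147 and 241. Its second probe gave -0.07 and 0.02, so the Csf2rb probes disagree in size and on array 1 in sign.

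The 3 chains of complement C1q, which binds antibody and dying cells, are encoded side by side, with their probes within 15891 bases of chromosome 4. Their probe sequences are shown because the chains are made as partners of 1 protein and yet were measured through unrelated stretches.
C1qa: ccggccagctttctcagccattcggcagaa
C1qb: attctggggactacggggctacacagaaag
C1qc: tctgggaaccacctaatggtattattcctg
They lay on the - strand of mm9 at chr4:136452409-136452468, chr4:136436578-136436637 and chr4:136445766-136445825. C1qc had signals of 1073 in the labelled Smad4cKO and 811 in the labelled control on array 1, and 1214 and 1184 on array 2, and gave 0.37 on array 1 and 0.02 on array 2. It was spotted 10 times on each array, with a standard deviation between its spots of 0.03 on array 1 and 0.06 on array 2. The gap between its arrays, 0.34, was thus wider than the spread of its spots within an array, which is technical only. C1qb gave 0.45 and -0.05 and C1qa 0.22 and -0.14. All 3 chains were brighter on array 1 and lay near or below 0 on array 2, with means of 0.04 ± 0.15, 0.20 ± 0.17 and 0.20 ± 0.15 for C1qa, C1qb and C1qc.

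The Fc receptor genes Fcer1g and Fcgr3, with Tyrobp and Trem2, showed the same split. Fcer1g, the gamma chain through which several Fc receptors signal, had signals of 3765 in the labelled Smad4cKO and 2679 in the labelled control on array 1, and 4051 and 4087 on array 2. Its ratio was 0.45 on array 1 and 0.02 on array 2 (mean 0.23 ± 0.16). Fcgr3, a low-affinity receptor for IgG whose probe lies within 175725 bases of that of Fcer1g on chromosome 1, had signals of 1890.2 in the labelled Smad4cKO and 1227 in the labelled control on array 1, and 1761 and 1939 on array 2. It gave 0.60 on array 1 and -0.16 on array 2, the widest gap between arrays among the macrophage genes (0.76). Tyrobp, the adaptor DAP12, gave 0.29 and -0.04. Trem2, the lipid-sensing receptor that signals through Tyrobp, gave 0.29 and -0.27 and a mean of 0.01 ± 0.17. Of these 4 genes only Fcer1g was brighter on both arrays, by 0.02 on array 2. From its processed signals the array 2 ratio was -0.01, so the sign of Fcer1g there depended on the normalization.

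Scavenger, endocytic and pattern receptors were brighter on both arrays for 4 of 5 genes tested, with medians of 0.47 on array 1 and 0.28 on array 2. Beside Mrc1 and Stab1 these were Cd68, an endolysosomal glycoprotein (0.24 and 0.12), and Lyve1, a hyaluronan receptor of lymphatic endothelium and of perivascular macrophages. Lyve1 gave 0.0075 on array 1 and 0.28 on array 2, so its ratio on the female pair was near 0. Cd14, the co-receptor for bacterial lipopolysaccharide, had signals of 1122 in the labelled Smad4cKO and 796 in the labelled control on array 1, and 1131 and 1168 on array 2. It gave 0.48 and -0.11, with the labelled control of array 1 as the lowest of 4 channels.

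Of the lysosomal and killing proteins, Lyz2, the lysozyme of myeloid cells, had signals of 1398 in the labelled Smad4cKO and 895 in the labelled control on array 1, and 1396 and 1270.1 on array 2. The labelled control of array 1 was again the lowest channel. Its ratio was 0.61 on array 1 and 0.13 on array 2 (mean 0.37 ± 0.16, limma adjusted p = 1), the highest value of the set on array 1. Ctss, the protease cathepsin S, gave 0.27 and -0.0047. Cybb gave 0.31 and 0.08 at low signal, between 27.8 and 50.8. Cybb was tested only because the labelled Smad4cKO was above background on each array, so its brighter ratio carries little weight. On array 2 its processed signals ran the other way, 37.3 in the labelled Smad4cKO and 38.8 in the labelled control. Mpeg1, a pore-forming protein of phagocytes, gave 0.25 and -0.23. Laptm5, a lysosomal membrane protein of blood cells, gave 0.06 and 0.14, but its second probe gave -0.26 and 0.19. The Laptm5 probes therefore disagree in sign on array 1.

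Among the surface and cytoskeletal proteins of leukocytes, Adgre1, the adhesion receptor by which mouse macrophages are classically stained, has a pair of tested probes that differ. Their first 30 bases are shown with those of the pair for Cx3cr1, because each pair reads 1 gene and gives unlike ratios between arrays.
Adgre1, probe standing for the gene: atgaatataagaaactcctcaccaggaaga
Adgre1, other probe: ggtgttccagaaattctcatttaataccca
Cx3cr1, probe standing for the gene: cgtgcctagagtgtgtctatcccacttgta
Cx3cr1, other probe: caagaatgtcttcatgcattcactgactcc
The Adgre1 probes lay on the + strand at chr17:57620350-57620409 and chr17:57622868-57622927, and the Cx3cr1 probes on the - strand at chr9:119957811-119957870 and chr9:119959018-119959077 (mm9). Probes were ranked by mean log2 signal before dye normalization; for Adgre1 these were 10.38 and 10.13, while by processed signal the other probe was on average the brighter. The Adgre1 probe that stands for the gene had signals of 809 in the labelled Smad4cKO and 539 in the labelled control on array 1, and 749.9 and 759.6 on array 2, and gave 0.52 and -0.04. The other had signals of 748 and 597 on array 1 and 844 and 755 on array 2, and gave 0.22 and 0.20. On array 2 the sign of Adgre1 therefore depended on the probe, as did that of Cx3cr1. Ptprc, the pan-leukocyte phosphatase CD45, was brighter on both arrays (0.27 and 0.10), as were the tetraspanin gene Cd53 (0.18 and 0.18) and Coro1a, an actin regulator of leukocytes (0.02 and 0.18). Ms4a7, a membrane protein of tissue macrophages, gave 0.51 and -0.22. Aif1, the actin-binding protein IBA1, gave 0.32 and -0.10, and Cd48, an adhesion receptor of the SLAM family, 0.34 and -0.22, with 0.42 and -0.33 from its second probe. Cd83, a marker of activated dendritic and B cells, had signals of 1728 in the labelled Smad4cKO and 1765 in the labelled control on array 1, and 1759.8 and 1981 on array 2, and was the only gene dimmer on both arrays (-0.05 and -0.17, mean -0.11 ± 0.13).

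The arrays differed in the same sense for most of the set. For 25 of the 30 genes the ratio on array 1 exceeded that on array 2, which held for 51.8% of all genes tested. The median difference between arrays was 0.34 for the macrophage genes and 0.01 for all genes. Across the 30 genes the ratios of the arrays correlated at -0.09 (Pearson) and -0.10 (Spearman), beside -0.07 and -0.20 across all genes; these are correlations across genes, which share the same arrays and are not replicates. The difference between the female and the male pair was not tested, since each is 1 array.

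**Figure D2:**
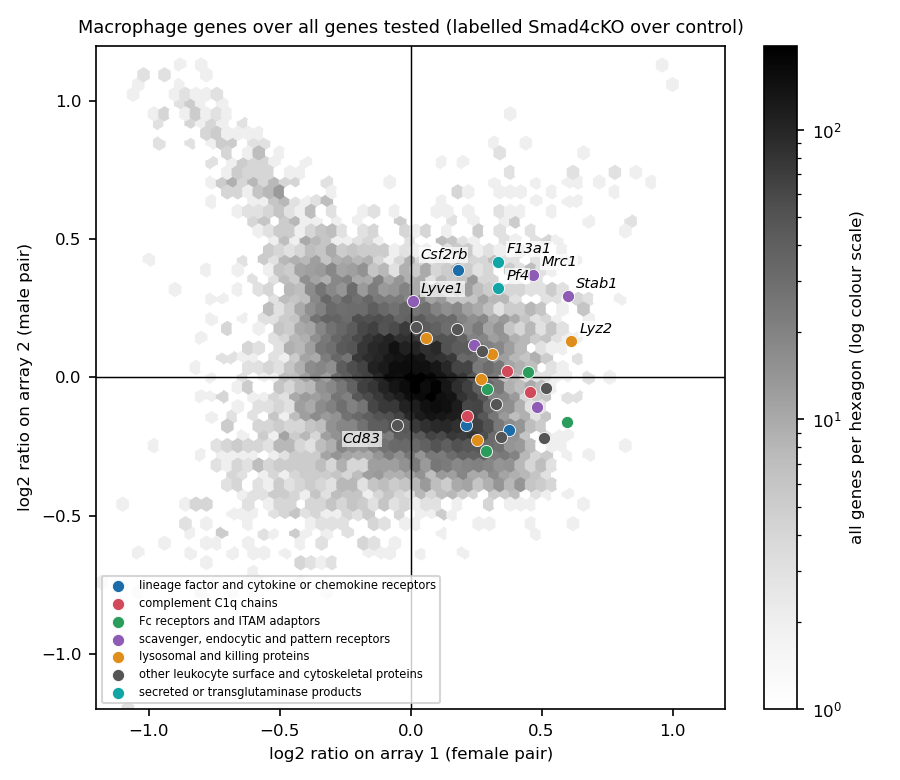
Log2 ratio (labelled Smad4cKO over labelled control) on array 1 against array 2, with all 21239 genes as grey hexagons on a log colour scale and the 30 macrophage genes as points coloured by role; all genes outside ±1.2 are cut off. The macrophage genes lie to the right of 0 with the exception of Cd83, 15 above and 15 below 0 on array 2.

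To see which channel set the genes apart, channel levels were put on 1 scale (loess and Aquantile, open to dye bias) and each gene was set against its own mean over the 4 channels. The labelled control of array 1 was the lowest channel for 25 of 30 macrophage genes, beside 30.3% of all genes. Its median departure was -0.22 on the log2 scale. The other 3 channels had medians of 0.10 (labelled Smad4cKO, array 1), 0.06 (labelled control, array 2) and 0.05 (labelled Smad4cKO, array 2). The labelled Smad4cKO of array 1 was the highest channel for 13 of 30, beside 24.9% of all genes. Both counts partly restate the array 1 ratios, since 29 of the 30 genes were brighter in the labelled Smad4cKO there. In all 3 C1q chains and in Fcer1g, Fcgr3, Tyrobp and Trem2 the labelled control of array 1 was lowest. The 5 exceptions were Pf4, Coro1a, Lyve1 and Laptm5, lowest in the labelled control of array 2, and Cd83, lowest in the labelled Smad4cKO of array 2. The pair of secreted products, F13a1 and Pf4, had median departures of -0.17 and -0.18 in the labelled controls of arrays 1 and 2, and 0.16 and 0.19 in the labelled mutants.

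**Figure D3:**
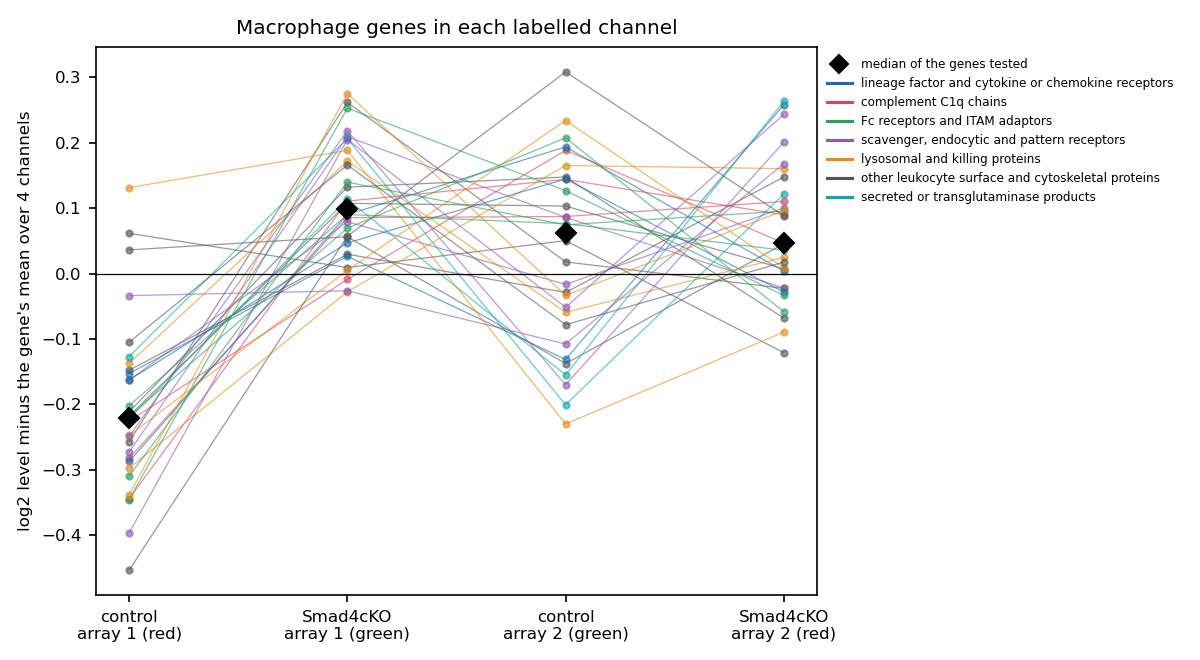
Log2 level of each of 30 macrophage genes in the 4 labelled channels after loess and Aquantile, minus the gene's mean over the channels, with 1 line per gene coloured by role and a diamond for the median. The diamond of the labelled control of array 1 lies at -0.22, and the others between 0.05 and 0.10.

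In the scanner software's own signals of the same spots, the labelled control of array 1 had the lowest sum. These signals were not scaled between arrays, and both sums of array 1 lay below both sums of array 2. Summed over the 30 genes, the processed signal was 41689 in the labelled Smad4cKO and 32422 in the labelled control on array 1, a ratio of 1.29. On array 2 the sums were 45705 and 45878, a ratio of 0.996. By the authors' deposited p-value of each spot's ratio, which covers error within an array and not between embryos, 11 of 30 genes were under 0.05 on array 1 (12.1% of all genes), all of them brighter in the labelled Smad4cKO. On array 2 there were 3, also brighter (9.55% of all genes): Mrc1, F13a1 and Csf2rb. Mrc1 was the only one of the 30 under 0.05 on both arrays by this measure. With median centring in place of loess, the medians of all genes moved to -0.12 on array 1 and 0.12 on array 2. The macrophage genes then had medians of 0.24 and 0.09, so that relative to all genes they kept a positive value on array 1 and lay slightly below on array 2, and 18 of 30 were brighter on both arrays (16.5% of all genes).

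Further genes of the macrophage program, listed separately, followed the set on array 1. Of 36 other macrophage genes tested, 28 were brighter on array 1 and 15 on array 2, with medians of 0.26 and -0.02, and 0 passed limma. Msr1, the class A scavenger receptor, gave 0.57 and 0.17. Folr2, a folate receptor of resident macrophages, gave 0.19 and 0.38, and the leukocyte integrin gene Itgal 0.29 and 0.22. Itgax, Fcgr1, Ccr2, Gpnmb, Siglec1 and Lcp2 were not well above background in any channel. Of 10 antigen presentation genes, 8 were brighter on array 1 and 3 on array 2 (medians 0.23 and -0.08); the MHC class II gene H2-Eb1 was the only one brighter on both (0.11 and 0.31).

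Among all these lists, only the myeloid transcription factors held genes at least 1.5-fold brighter on array 1 and array 2, namely Irf5 and Cebpa, and 0 of 12 passed limma. Irf5, an interferon regulatory factor of macrophages and B cells, had signals of 675 in the labelled Smad4cKO and 219 in the labelled control on array 1, and 694 and 258 on array 2. Both mutant channels exceeded both controls. Its ratio was 1.42 on array 1 and 1.26 on array 2 (mean 1.34 ± 0.13, limma adjusted p = 0.0844). Cebpa, a factor of myeloid, fat and liver cells, gave 0.78 and 0.64 (mean 0.71 ± 0.13, limma adjusted p = 0.237), and Maf, which also acts outside macrophages, 0.18 and 0.44. Medians of the 12 factors were 0.18 (array 1) and 0.06 (array 2). Of 8 growth factors and chemoattractants tested, 4 were brighter on array 1 and 5 on array 2, with medians of -0.07 and 0.13; Cx3cl1, the ligand of Cx3cr1, gave 0.06 and 0.37, Ccl2 0.01 and 0.24 and Ccl7 -0.22 and -0.13.

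Among markers of other cell types, the median difference between array 1 and array 2 was 0.61 for granulocyte and mast cell markers and 0.21 for lymphocyte markers. It was near 0 for megakaryocyte and platelet (-0.04), endothelial and lymphatic (-0.01) and erythroid markers (-0.01). The part of these cell types in the macrophage values was not tested. Of 11 granulocyte and mast cell markers tested, 7 were brighter on array 1 and 2 on array 2 (medians 0.35 and -0.27), with a summed signal ratio of 1.38 on array 1 and 0.687 on array 2. Csf3r, the receptor for the granulocyte growth factor, made up most of that sum, and without it the ratios were 1.08 and 0.72. Only Kit (-0.12 and -0.31) and Elane, neutrophil elastase (-0.03 and -0.05), were dimmer on both arrays. The other 9 took opposite signs, and 7 of them were brighter on array 1, such as S100a9 (0.51 and -1.44) and S100a8 (0.77 and -0.97). The remaining 2 were brighter on array 2, such as Mpo (-0.70 and 0.18). The mast cell genes Mcpt4, Ms4a2 and Fcer1a were not well above background in any channel. Of 15 lymphocyte markers, 6 were tested, and Cd3g, Cd8a, Ms4a1, Il7r, Klrb1c and Rag1 were not above background in any channel; Thy1, also made by other cells, gave 0.49 and 0.32, Cd79b 0.53 and 0.17 and Cd3e -0.02 and -0.04. The 9 megakaryocyte and platelet markers, relevant to Pf4, had medians of -0.10 and 0.06, and 3 were brighter on array 1 and 5 on array 2. Of the 9, 2 were brighter on both arrays and 3 dimmer on both, the latter Vwf at -0.30 and -0.13, Gp9 at -0.13 and -0.12 and Itga2b at -0.10 and -0.06.

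The 16 endothelial and lymphatic markers, relevant to Mrc1, Stab1 and Lyve1, were brighter for 11 genes on array 1 and 12 on array 2, with medians of 0.12 and 0.19 and summed signal ratios of 1.1 and 1.05. Stab2, a relative of Stab1 in sinusoidal and lymphatic endothelium, had signals of 473 in the labelled Smad4cKO and 290.2 in the labelled control on array 1, and 495 and 394 on array 2, and gave 0.57 and 0.32. Ramp2, a receptor partner in vessels, gave 0.63 and 0.48, and Egfl7 -0.23 and -0.22. Prox1, which defines lymphatic endothelium, was above background in 1 of 4 channels. Of 13 erythroid markers, 3 were brighter on array 1 and 6 on array 2 (medians -0.26 and -0.09), with Gata1 at -0.52 and -0.51 and Klf1 at -0.57 and -0.30. Of 15 immediate early and stress genes, which cells switch on rapidly after a stimulus, 1 was brighter on array 1 and 13 on array 2, with medians of -0.72 and 0.42 and Jun at -0.95 and -0.07. Their labelled control on array 1 lay above the other channels (median departure 0.46), the channel in which the macrophage genes were lowest.

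**Figure D4:**
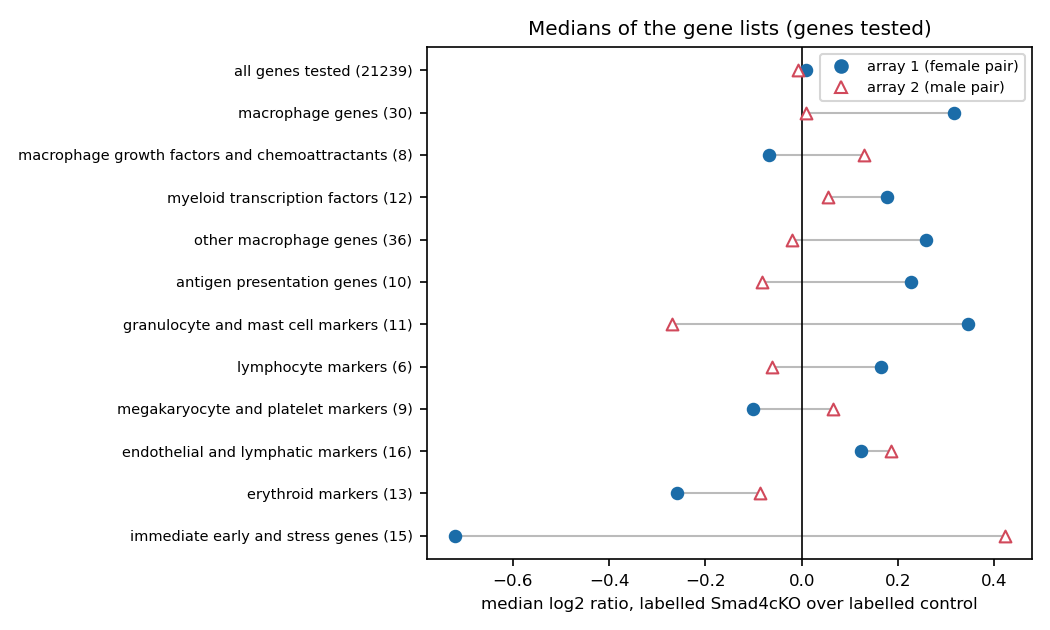
Median log2 ratio (labelled Smad4cKO over labelled control) of each gene list on array 1 (filled circle) and array 2 (open triangle), with the number of genes tested in brackets. The macrophage genes lie at 0.32 and 0.0081, the endothelial markers on the same side of 0 on both arrays, and the immediate early genes at -0.72 and 0.42.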

How the data were processed

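The submitters' processing notes name Agilent Feature Extraction 10.7.3.1; each channel began from 200 ng of total RNA, per the labels. Each deposited scanner file gives, per spot, an intensity in red and green, the log10 red over green ratio and its p-value. Signed folds make up the authors' deposited values; after turning the sign, 26912 of 28044 probes with a fold other than 1 (array 1) and 26979 of 28118 (array 2) equalled the processed signals' log2 ratios within 1e-06 up to a constant, with a column median of 1. In the labelled Smad4cKO 70.3% and 69.0% of spots were well above background, and in the labelled control 68.3% and 70.1%.

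Mean signals were corrected with normexp (offset 50) and normalized by loess, with the 1377 control spots at weight 0 (limma 3.58.1, statmod 1.5.0, R 4.3.3, the data.table package, version 1.17.8; sequences with Python 3.11.15 and pandas 2.3.3). Outlier spots were left out and spots of a probe averaged. Testing required 1 labelled group to be well above background on each array (26702 probes); each gene was represented by its brightest such probe. Limma (lmFit, eBayes, Benjamini-Hochberg) tested log2 ratios against 0 with 1 residual and 4.88 prior degrees of freedom; it was tested on simulated data. Accessions of 26412 probes were matched to RefSeq symbols. The genes and lists were chosen with earlier results of these data known. Every macrophage gene is named; for each other list, up to 3 genes with the same sign on both arrays, by the smaller absolute ratio, and any past limma. Some genes of these lists are not reported here.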

Additional observations from a re-analysis of the deposited data

Results flagged for a closer look

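The female pair (array 1) and the male pair (array 2) moved in opposite directions for 14 of the 30 macrophage genes, all brighter in the labelled Smad4cKO on the female pair and dimmer on the male pair. The log2 ratio of the female pair minus that of the male pair was 0.56 for Adgre1, 0.42 for Aif1, 0.36 for C1qa, 0.51 for C1qb, 0.59 for Cd14, 0.56 for Cd48, 0.57 for Csf1r, 0.27 for Ctss, 0.38 for Cx3cr1, 0.76 for Fcgr3, 0.48 for Mpeg1, 0.73 for Ms4a7, 0.55 for Trem2 and 0.33 for Tyrobp. Sex and dye orientation changed together, each pair is 1 array, and the differences were not tested. Over all genes tested, 60.3% took opposite signs and 31.7% were brighter on the female and dimmer on the male pair. On the male pair Ctss, Adgre1, Tyrobp and C1qb lay between -0.054 and -0.0047. Second probes of Adgre1 (0.22 and 0.20) and Cx3cr1 (0.04 and 0.11) were brighter on both arrays, so their opposite signs depended on the probe.

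Medians of 7 other lists also took opposite signs on the arrays, again untested. For the macrophage growth factors and chemoattractants the medians were -0.068 (female pair) and 0.13 (male pair). For the other macrophage genes the medians were 0.26 (female pair) and -0.02 (male pair). For the antigen presentation genes the medians were 0.23 (female pair) and -0.08 (male pair). For the granulocyte and mast cell markers the medians were 0.35 (female pair) and -0.27 (male pair). For the lymphocyte markers the medians were 0.16 (female pair) and -0.06 (male pair). For the megakaryocyte and platelet markers the medians were -0.10 (female pair) and 0.06 (male pair). For the immediate early and stress genes the medians were -0.72 (female pair) and 0.42 (male pair).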

How the results depend on the processing

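Across 10 alternatives of background correction, scaling, filter, probe choice, outlier spots and test, the mean ratio of each of the 30 macrophage genes (29 where both channels had to be above background) kept its sign and 0 passed limma. Their median stayed between 0.16 and 0.21, and 14 to 18 were brighter on both arrays. On array 2 the median lay between -0.02 and 0.09, so its sign depended on the setting. Over all genes, limma called 0 brighter and 0 dimmer after median centring, after averaging the probes of each gene and after keeping outlier spots. It called 0 and 1 without background subtraction or without the filter, 1 and 3 where both channels had to be above background, and 32 and 31 under normexp offset 10. The authors' values gave 71 and 77, processed signals 143 and 160, and a robust fit following intensity 297 and 406; the cause was not tested. Leaving out each array in turn, which leaves values with no test, the genes brighter on every array kept ranged from 15 to 29, those dimmer from 1 to 15, those past 1.5-fold from 0 to 3 and the median from 0.0081 to 0.32. Without Mrc1, Stab1, Lyve1 and Pf4, an alternative added after seeing the data, the median was 0.16. Each ratio was taken within an array, so the limma fit is already paired, and no further replicate block could be added. The number of arrays limits the precision: the SE of a macrophage gene's mean was 0.13 to 0.20 (log2), drawn largely from the pooled spread of all genes.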
